A study of Mus musculus with 22 samples.

Results

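Transcripts of 10 genes of lipid mediator metabolism were followed across 22 RNA sequencing libraries from mouse TH2 cells, the helper T cells of allergic (type 2) immunity, polarized in culture. They are 10 of the 49671 genes in the count table, and their Ensembl identifiers all matched rows of the table by symbol. They were listed with the difference between calcitriol and vehicle known, so that this difference is given for them as a description, and no call on a member is read as support. In 11 libraries the wild-type cells had received 100 nM calcitriol, the active hormone form of vitamin D, for 24 hours, and in 11 libraries 2% ethanol as the vehicle. All cells came from Balb/c mice, males and females, bred on food with 400, 1000 or 4000 IU of vitamin D3 per kg, and RNA was taken at day 5. The mice were 6 to 8 weeks old when bought for this breeding, and the labels do not say how old those were whose cells were cultured. The labels do not give the mouse, sex, diet or culture of a single library, nor the ethanol content of the calcitriol cultures, so the spread on which the p-values below rest is that of libraries and may be partly technical.

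Prostaglandins are made in steps. Cytosolic phospholipase A2, encoded by Pla2g4a, frees arachidonic acid from membranes. A cyclooxygenase, either the constitutive Ptgs1 or the inducible Ptgs2, turns it into prostaglandin H2, and a terminal synthase makes the final product, which acts through receptors such as EP4 (Ptger4) for prostaglandin E2 and CRTH2 (Ptgdr2) for prostaglandin D2. Platelet-activating factor is a separate phospholipid mediator, and the secreted acetylhydrolase Pla2g7 inactivates it. Both kinds of mediator are known from allergic inflammation, in which TH2 cells take part.

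With calcitriol, transcripts of Pla2g7, Ptgs2, Pla2g4a and Ptges were higher, with no overlap between the 11 calcitriol and the 11 vehicle libraries in any of these 4 genes. Ptgs1 was lower without overlap, so that the cyclooxygenase transcripts were almost only Ptgs2 with calcitriol and mostly Ptgs1 with vehicle. Of the 11905 genes tested, which do not include Ptgs1, 2.77% were higher and 1.59% lower without overlap. Ptges2, Ptges3 and Ptger4 differed by little, Hpgds was low with overlapping groups, and Ptgdr2 was scarcely detected. These are whole-culture measurements, in which fewer cells expressing a gene and less RNA per cell cannot be told apart.

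The promoters of the genes with the widest differences are shown first, as 300 bases from 250 before the annotated start of the gene, read 5′ to 3′ on the strand of the gene (RefSeq, GRCm38.p6). Capitals mark matches to the motifs named below. The RefSeq start of Pla2g7 lies inside the longer gene body that GENCODE gives, so its window does not precede the GENCODE start.
Pla2g7 (chr17:43568201-43568500, plus strand): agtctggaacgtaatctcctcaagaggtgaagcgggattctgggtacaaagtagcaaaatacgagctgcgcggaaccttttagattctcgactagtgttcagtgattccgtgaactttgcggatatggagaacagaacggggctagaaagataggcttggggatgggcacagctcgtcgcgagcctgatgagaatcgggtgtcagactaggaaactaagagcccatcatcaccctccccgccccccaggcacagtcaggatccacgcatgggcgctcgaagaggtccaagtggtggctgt
Ptgs2 (chr1:150099781-150100080, plus strand): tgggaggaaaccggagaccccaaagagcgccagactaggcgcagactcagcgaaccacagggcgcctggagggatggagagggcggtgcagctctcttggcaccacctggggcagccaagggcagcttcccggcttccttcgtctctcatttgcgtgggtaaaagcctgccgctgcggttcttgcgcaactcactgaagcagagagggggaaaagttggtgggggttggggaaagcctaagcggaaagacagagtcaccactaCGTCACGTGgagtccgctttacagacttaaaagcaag
Pla2g4a (chr1:149961241-149961540, minus strand): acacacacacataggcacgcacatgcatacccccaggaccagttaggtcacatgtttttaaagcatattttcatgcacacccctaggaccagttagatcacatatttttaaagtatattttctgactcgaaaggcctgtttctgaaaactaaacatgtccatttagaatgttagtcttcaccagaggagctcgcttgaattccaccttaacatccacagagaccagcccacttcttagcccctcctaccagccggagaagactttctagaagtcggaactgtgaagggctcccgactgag
Ptgs1 (chr2:36230176-36230475, plus strand): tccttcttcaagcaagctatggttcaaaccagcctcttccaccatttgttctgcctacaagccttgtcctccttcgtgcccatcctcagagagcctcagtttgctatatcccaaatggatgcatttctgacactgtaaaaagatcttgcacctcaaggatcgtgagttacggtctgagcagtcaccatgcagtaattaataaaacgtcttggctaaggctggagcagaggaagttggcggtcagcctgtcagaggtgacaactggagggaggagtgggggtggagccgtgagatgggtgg

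All 10 members had a window of this kind, 11 in all, since Pla2g4a has a second annotated start. Like that of Pla2g7, the windows of Ptges and of this second start lie wholly inside the GENCODE gene body and do not precede the GENCODE start. Both strands were searched for a DR3 vitamin D element (a pair of short sites, each AGGTCA or AGGTGA or AGTTCA or AGTTGA or GGGTCA or GGGTGA or GGTTCA or GGTTGA, in the same direction, with NNN between them), TGACGTCA (the full cAMP response element), TGACG (its shorter form), CACGTG (an E-box), TGAGTCA (an AP-1 site) and TATAAA. In the Ptgs2 window, TGACG on the opposite strand begins at base 264 and CACGTG at base 267, counted from the first base printed, and the 2 matches overlap. No DR3 match lay in any of the 11 windows, and 0.256% of all 32851 promoter windows hold one. TGACG lies in 20.8% and CACGTG in 7.15% of all windows. Among the other windows, Ptges3 held TGACG, Ptges2 held CACGTG, and TATAAA lay in the window of the second Pla2g4a start. The windows printed for Pla2g7, Pla2g4a and Ptgs1 held none of these motifs.

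Libraries held between 3214171 and 20258430 counts in all, and levels are given as CPM, the counts of a gene scaled to library size, after TMM normalisation for differences in library make-up. The calcitriol-inactivating hydroxylase Cyp24a1, a known target of the hormone, had 2381 counts over the calcitriol libraries and 0 over the vehicle libraries. Replicates 1 and 2 of both groups stood apart from the rest on the second principal component, with Cyp24a1 at 62.7 and 75.7 CPM in calcitriol replicates 1 and 2. Within each group, libraries that were each other's best match by correlation were also joined, which gave 14 sets. This rule yields only pairs or single libraries in any data, so the pairing itself is no result. Members are given with and without the 4 libraries that stood apart where they differ. Of the 10 members, 7 passed the filter on low counts, and Ptgs1, Hpgds and Ptgdr2 did not.

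Among the 7 members that passed, 4 were called higher and 2 lower by edgeR at an adjusted p of 0.05, a rule that called 31.5% of the 11905 genes tested, 16.1% higher and 15.5% lower. All calcitriol libraries lay above all vehicle libraries in 4 of these members, against 2.77% of the genes tested. The members were listed with these results known. Pla2g7, Ptgs2 and Ptges also passed the filter through their calcitriol libraries. Nothing is therefore read from these counts.

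Pla2g4a encodes the phospholipase that starts the path by releasing arachidonic acid. It ran from 22.5 to 33.0 CPM with a median of 28.0 in the calcitriol libraries, and from 3.44 to 8.01 CPM with a median of 4.61 in the vehicle libraries. Every calcitriol library lay above every vehicle library, and within the calcitriol group Pla2g4a was the steadiest of the 4 genes that were higher, with a coefficient of variation of 12.3%. The log2 change was 2.47 ± 0.12 (SE), or 5.53-fold.

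Ptgs2, the inducible cyclooxygenase, had between 21.0 and 43.4 CPM with a median of 25.8 in the calcitriol libraries. In the vehicle libraries it had between 0.338 and 1.87 CPM with a median of 0.704, from 67 counts over all 11. The groups were far apart, with a log2 change of 5.34 ± 0.21 (SE), the 6th highest of the 11905 genes tested. The highest calcitriol values were in replicates 9, 2 and 1, at 43.4, 41.2 and 37.8 CPM, followed by replicate 10 at 30.0 CPM. Without the 4 libraries that stood apart, the means were 27.4 ± 6.70 CPM (SD) in calcitriol and 0.783 ± 0.489 CPM in vehicle libraries.

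Ptgs1, the constitutive cyclooxygenase, moved the other way. It had 14 counts over the calcitriol libraries, 5 of which held none, and 217 counts over the vehicle libraries, all of which held some. The level ran from 0 to 0.644 CPM with a median of 0.0951 in calcitriol, and from 1.21 to 4.95 CPM with a median of 1.85 in vehicle libraries. All 11 calcitriol libraries lay below all 11 vehicle libraries, as in 1.59% of the genes tested, to which Ptgs1 did not belong. The ratio of the pooled CPM was 0.0641 (95% exact interval 0.0345 to 0.110), and this interval covers counting error only. A count of 0 allows between 0.244 and 0.966 CPM across the depths of the calcitriol libraries, taking 3 counts as the limit. The upper value is that of calcitriol replicate 2, which held 2 counts of Ptgs1 and so was not among the libraries with none. Because Ptgs1 did not pass the filter, its log2 change of -3.87 comes from a fit without one. Vehicle replicates 1 and 2 had the highest values, 4.80 and 4.95 CPM, and without the 4 libraries the means were 0.0950 ± 0.163 CPM (SD) in calcitriol and 1.94 ± 0.518 CPM in vehicle libraries.

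**Figure D1:**
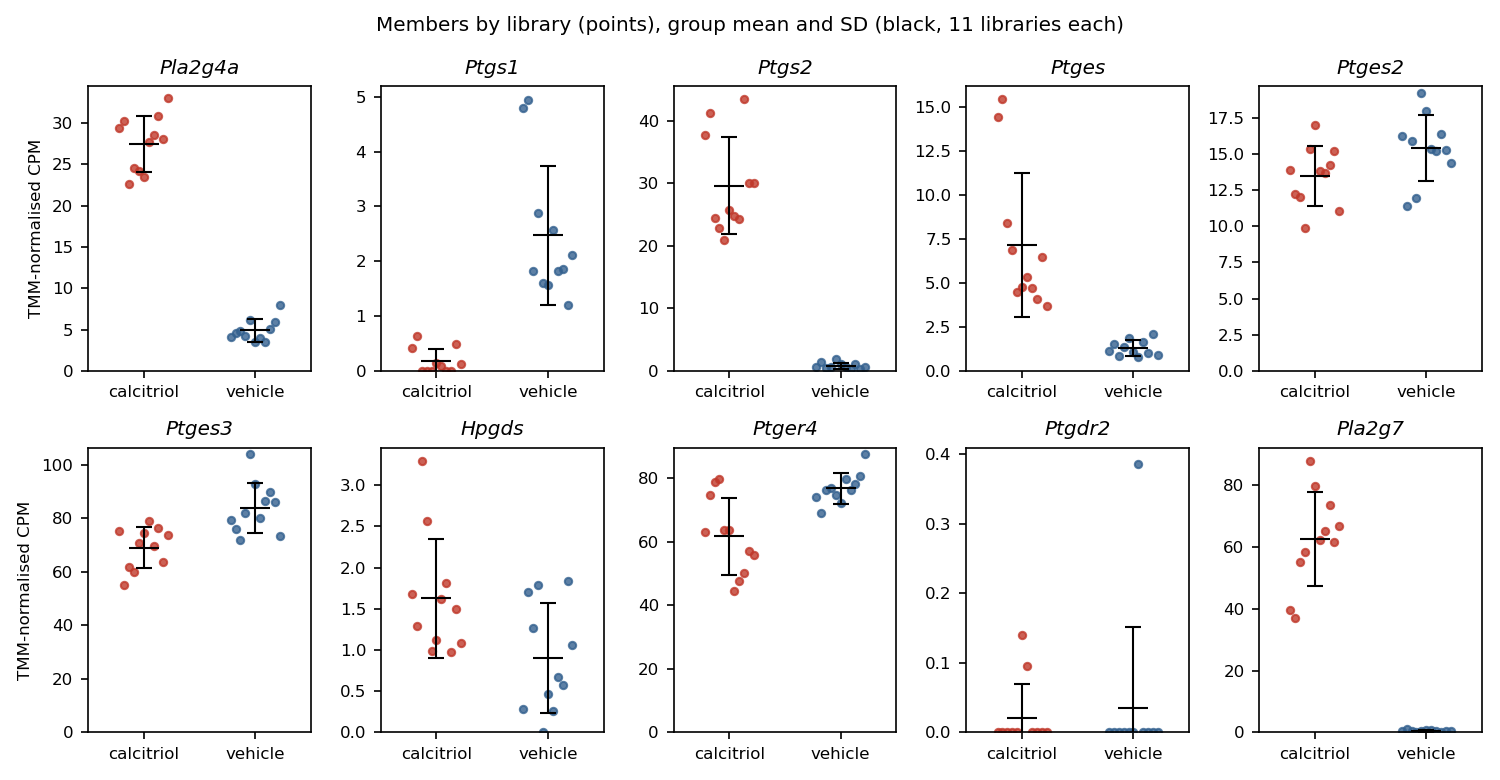
TMM-normalised CPM (vertical axis, one scale per gene, each from 0) of the 10 members in calcitriol and vehicle libraries, with 1 point per library, the mean and the SD. Pla2g4a, Ptgs2, Ptges and Pla2g7 do not overlap between the groups and are higher with calcitriol, Ptgs1 does not overlap and is lower, and the 2 raised points of Ptges in calcitriol are replicates 1 and 2.

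Set per kb of exon, the scale on which genes can be compared, Ptgs2 made up 99.4 ± 0.744% (SD, n = 11) of the 2 cyclooxygenase transcripts in calcitriol libraries, with a range of 98.1% to 100%. In vehicle libraries the share was 23.0 ± 11.8% (SD, n = 11), with a range of 11.1% to 49.7%. Ptgs2 thus led the pair in 11 of 11 calcitriol libraries, and Ptgs1 in 10 of 11 vehicle libraries. In vehicle replicate 5 they were level, with 7 counts of Ptgs2 and 6 of Ptgs1, and which one led depended on the division by exon length. Their summed level was 6.51 ± 1.73 CPM per kb in calcitriol and 0.818 ± 0.357 CPM per kb in vehicle libraries.

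**Figure D2:**
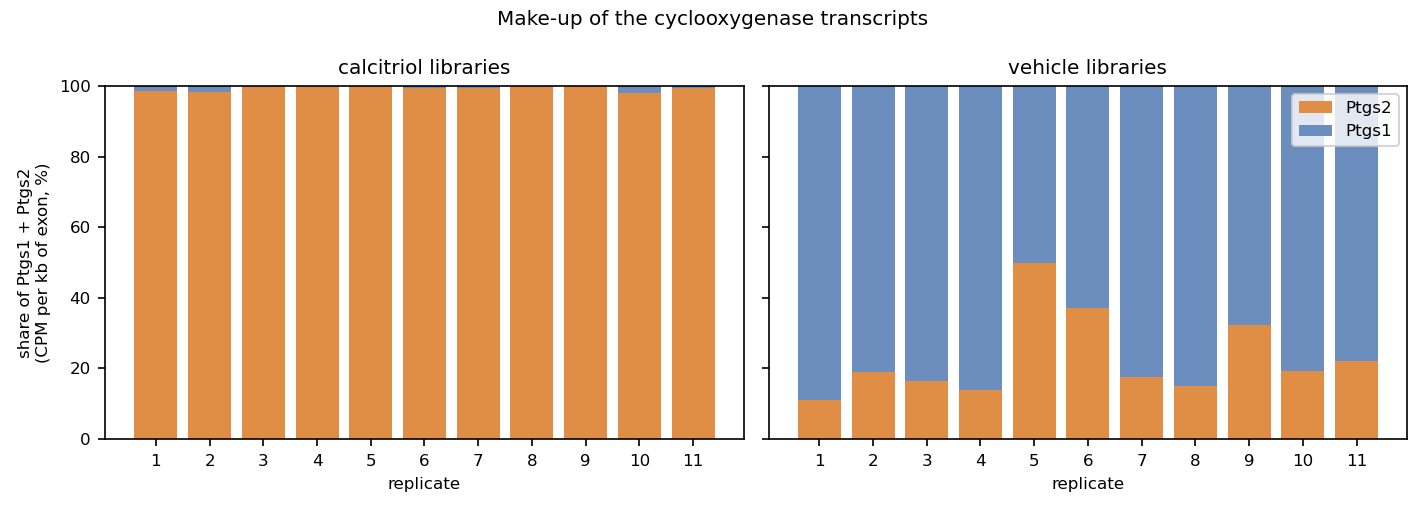
Share of Ptgs2 and Ptgs1 in their summed level (CPM per kb of exon, in %) in each library, calcitriol on the left and vehicle on the right. Ptgs2 takes at least 98.1% of every calcitriol bar and at most 49.7% of any vehicle bar.

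Of the terminal synthases, only the inducible, microsomal prostaglandin E synthase Ptges stood clear of the vehicle libraries. It ran from 3.72 to 15.5 CPM with a median of 5.33 in calcitriol, and from 0.773 to 2.07 CPM with a median of 1.13 in vehicle libraries. Of the calcitriol libraries, 2 lay well above the other 9, replicates 1 and 2 at 14.4 and 15.5 CPM, whereas the next was at 8.39 CPM. The log2 change was 2.36 ± 0.27 (SE) over all libraries and 2.01 without the 4 libraries, where the means were 5.42 ± 1.52 CPM (SD) in calcitriol and 1.29 ± 0.476 CPM in vehicle libraries.

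Ptges2, the membrane-associated synthase that is made constitutively, had 13.5 ± 2.06 CPM in calcitriol and 15.4 ± 2.28 CPM in vehicle libraries (SD, n = 11 each). The groups overlapped widely, with a log2 change of -0.18 ± 0.09 (SE). Ptges3, the cytosolic synthase that is also the p23 co-chaperone of the chaperone HSP90, had 69.1 ± 7.79 CPM in calcitriol and 83.9 ± 9.38 CPM in vehicle libraries. Its log2 change of -0.27 ± 0.07 was small, and 6 of 11 calcitriol libraries lay below every vehicle library. A processed pseudogene, Ptges3-ps, held 616 counts in calcitriol and 687 in vehicle libraries, so that reads may be split between the copies. Per kb of exon, Ptges held 5.21 ± 3.16% of the 3 prostaglandin E synthase transcripts in calcitriol and 0.795 ± 0.237% in vehicle libraries, the rest being mainly Ptges3.

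Hpgds, the synthase of prostaglandin D2 in haematopoietic cells, was low in both groups, at 1.63 ± 0.722 CPM in calcitriol and 0.901 ± 0.663 CPM in vehicle libraries (SD, n = 11 each). Its values overlapped, with 2 calcitriol libraries above every vehicle library, and the ratio of pooled CPM was 1.43 (95% exact interval 1.10 to 1.86, for counting error only). The deepest vehicle library, replicate 10, held 38 of the 101 vehicle counts and so weighs on that ratio, and the log2 change in the fit without a filter, where libraries are scaled one by one, was 0.72.

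The 2 receptors differed widely in abundance. Ptger4, the EP4 receptor through which prostaglandin E2 raises cyclic AMP, ran from 44.3 to 79.6 CPM with a median of 63.0 in calcitriol and from 68.9 to 87.4 CPM with a median of 76.3 in vehicle libraries. Of the calcitriol libraries, 8 lay below every vehicle library, while replicates 2, 3 and 4 lay within the vehicle range at 74.7, 78.7 and 79.6 CPM. The log2 change was -0.33 ± 0.08 (SE). The coefficient of variation was 19.7% in calcitriol and 6.34% in vehicle libraries, the vehicle spread being lower than in most genes tested (6.13% of them varied less on the log2 scale). Ttc33, which overlaps Ptger4 on the opposite strand, had 2814 counts in calcitriol and 2593 in vehicle libraries, and without a stated strand setting reads in the shared stretch cannot be told apart. Ptgdr2, the receptor CRTH2 that marks TH2 cells in humans, had 2 counts over the calcitriol and 3 over the vehicle libraries, so that no difference was detectable at this depth.

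Pla2g7, the acetylhydrolase that inactivates platelet-activating factor, had the widest difference of all members. It ran from 37.0 to 87.8 CPM with a median of 62.4 in calcitriol, and from 0 to 1.19 CPM with a median of 0.423 in vehicle libraries, which held 44 counts together. The log2 change of 7.05 ± 0.22 (SE) was the 3rd highest of the 11905 genes tested. Within the calcitriol group, the lowest values were in replicates 1 and 2 at 39.7 and 37.0 CPM and the highest in replicates 5 and 6 at 87.8 and 79.9 CPM. Calcitriol replicates 1 and 2 were thus the lowest for Pla2g7, the highest for Ptges and among the highest 3 for Ptgs2. Without the 4 libraries the log2 change of Pla2g7 was 7.33.

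Ordered by level per kb of exon, the vehicle libraries had Ptges3 first (37.8 ± 4.23 CPM per kb, SD), then Ptger4 (11.5 ± 0.732) and Ptges2 (3.04 ± 0.451), and these did not overlap with their neighbours in that order. Pla2g4a, Ptgs1, Ptges, Ptgs2, Pla2g7 and Hpgds followed between 0.765 and 0.140 CPM per kb, each overlapping with the next, and Ptgdr2 came last. In the calcitriol libraries Ptges3 was again first (31.2 ± 3.52 CPM per kb), but Pla2g7 came second (21.5 ± 5.26), ahead of Ptger4 (9.27 ± 1.83), Ptgs2 (6.46, range 4.59 to 9.48) and Pla2g4a (4.30 ± 0.531). Ptges3 exceeded Pla2g7 in 11 of 11 of these libraries, and Ptger4 exceeded Ptgs2 in 10, although the ranges of each pair overlapped.

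**Figure D3:**
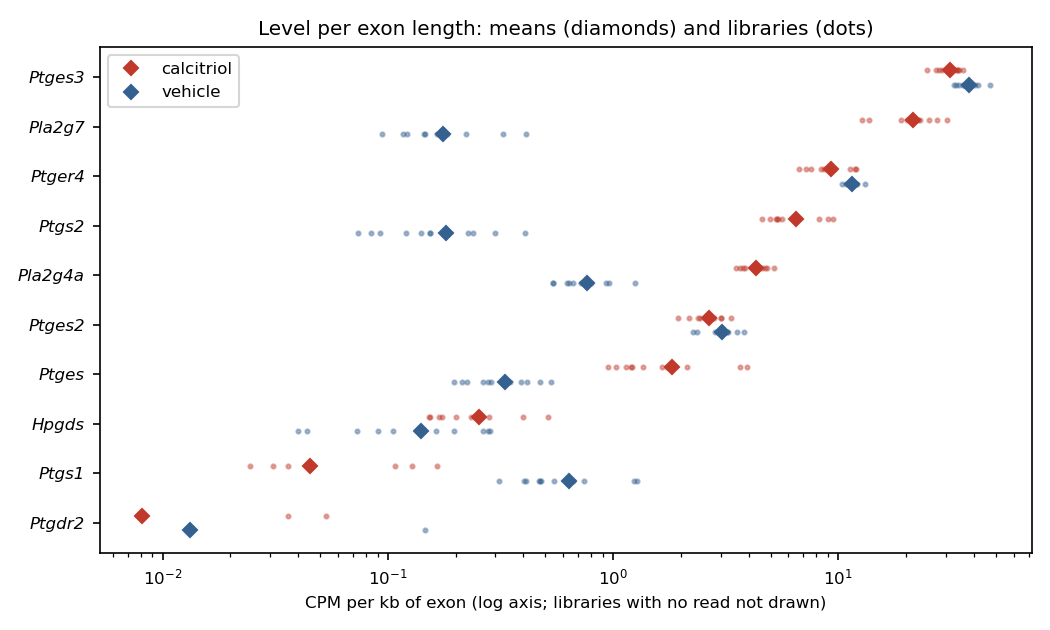
Level of each member per kb of exon (horizontal log axis, CPM per kb), with dots for single libraries and diamonds for the mean of 11 calcitriol or 11 vehicle libraries; libraries with no read are not drawn. Pla2g7 stands at 21.5 with calcitriol against 0.175 with vehicle, and Ptgs1 at 0.0449 against 0.637.

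Ptgs2 and Pla2g4a are neighbours on chromosome 1, in GRCm38 at 150100031 to 150108227 on the plus strand and at 149829618 to 149961290 on the minus strand. Their starts face each other across 139 kb, in which the annotation has 3 genes that code for no protein. Pla2g7 lies on chromosome 17 at 43568098 to 43612201 (plus strand). On chromosome 2 lie Ptges (30889471 to 30929863, minus strand), Ptges2 (32395896 to 32405772, plus strand) and Ptgs1 (36230426 to 36252272, plus strand). Ptges3 lies on chromosome 10 (128058954 to 128077272, plus strand), Ptger4 on chromosome 15 (5206661 to 5244187, minus strand), Hpgds on chromosome 6 (65117293 to 65144908, minus strand) and Ptgdr2 on chromosome 19 (10937160 to 10942511, plus strand). Within 250 kb of Ptgs2, Pla2g4a or Pla2g7 the table has 24 other genes, of which 1 passed the filter, the pseudogene Rbm3-ps (log2 change 0.18 ± 0.22, edgeR adjusted p = 0.588). Ptgs2os is a transcript that starts on the opposite strand close to Ptgs2. It had 10 counts in calcitriol libraries, spread over 6 of them, and 0 in vehicle libraries. Against a limit of 3 counts over the vehicle group it was 3.31-fold higher, a ratio that leaves out counting error in the calcitriol counts. Ankrd66, near Pla2g7, had 21 counts in calcitriol and 0 in vehicle libraries, 6.96-fold higher on the same terms. Both were chosen after their values were seen.

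Within the groups, the 7 members that passed the filter were compared with one another. Over the deviations of 22 libraries from their group means, Pearson's r on log2 CPM was 0.05 between Ptgs2 and Pla2g7, 0.27 between Ptgs2 and its neighbour Pla2g4a and 0.22 between Ptgs2 and Ptges, and ran from -0.56 (Ptges3 with Ptger4) to 0.54 (Ptges2 with Ptges3) over all pairs. These r are descriptions, since the labels do not show whether the libraries are independent. Single vehicle libraries held 0 to 7 counts of Pla2g7 and 3 to 9 of Ptgs2, and counting error at such levels can weaken r. Among the 11284 genes that averaged 2 CPM or more, those most like Pla2g7 by this measure were Mdm2, 3110009E18Rik, Ints10, Phactr2 and Mien1, with r from 0.79 to 0.70. Those most like Ptgs2 were Tmem68, Fbxl15, Lsg1, D030056L22Rik and 1810055G02Rik, with r from 0.77 to 0.71. Both lists are the top of 11284 genes ranked over 22 libraries, a search that gives high r even among unrelated genes. Whether these genes vary with Pla2g7 or Ptgs2 beyond that was not tested. The log2 changes of these 10 genes lay between -0.66 (Phactr2) and 0.44 (Mien1).

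The surrounding pathway was described through 55 other genes of arachidonate release, prostanoids, platelet-activating factor and leukotrienes. All 55 were in the table and 28 passed the filter. By edgeR at an adjusted p of 0.05, 8 rose and 5 fell, 46.4% of those tested against 31.5% of all genes tested. As the lists were chosen with earlier results of these data known, nothing is read from these shares. The median log2 change of the 28 genes was -0.08, beside -0.01 for all genes tested. Most changes were far smaller than those of Pla2g7 or Ptgs2. The highest value was that of the leukotriene receptor Ltb4r1. Genes below the filter are named for their role, with their counts.

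In the leukotriene list 4 of 11 genes were tested, of which 3 rose and 1 fell. Ltb4r1, the high-affinity leukotriene B4 receptor, ran from 33.2 to 50.2 CPM in calcitriol and from 6.31 to 21.9 CPM in vehicle libraries. It rose by 1.40 ± 0.14 (SE) on the log2 scale (edgeR, adjusted p = 1.29e-08), with 11 of 11 calcitriol libraries above every vehicle library. The cysteinyl leukotriene receptors Cysltr1 and Cysltr2 rose by 0.60 ± 0.12 (edgeR, adjusted p = 0.000242) and 0.55 ± 0.15 (edgeR, adjusted p = 0.00828). Cysltr1 overlaps the gene Gm5127 on the opposite strand, which had 573 counts in calcitriol and 164 in vehicle libraries. The Cysltr2 call was lost when similar libraries were summed (log2 change 0.50, edgeR adjusted p = 0.0771). Lta4h, which makes leukotriene B4, fell slightly, at -0.17 ± 0.04 (edgeR, adjusted p = 0.0013). The enzyme that starts leukotriene synthesis, Alox5, had 97 counts in calcitriol and 114 in vehicle libraries and did not pass the filter, nor did its activating protein Alox5ap or the leukotriene C4 synthase Ltc4s.

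Of 13 genes of arachidonate release 6 were tested. Pla2g12a, a phospholipase A2 of the secreted family, had 327 ± 22.4 CPM in calcitriol and 212 ± 11.0 CPM in vehicle libraries (SD, n = 11 each), and rose by 0.63 ± 0.04 on the log2 scale (edgeR, adjusted p = 8.11e-12), without overlap. The lysosomal Pla2g15 fell, at -0.36 ± 0.09 (edgeR, adjusted p = 0.00184). Pla2g6 and Pnpla8, calcium-independent phospholipases, were at -0.17 ± 0.10 and -0.10 ± 0.06 and were not called. Of the genes that return arachidonate to membranes or make platelet-activating factor, 1 rose and 2 fell among 5 tested. Lpcat3, which inserts polyunsaturated fatty acids into phospholipids, rose by 0.69 ± 0.07 (edgeR, adjusted p = 5.88e-09), with 10 of 11 calcitriol libraries above every vehicle library. It overlaps Emg1 on the opposite strand, which had 15193 counts in calcitriol and 13854 in vehicle libraries. Acsl4, which activates arachidonate, fell, at -0.30 ± 0.08 (edgeR, adjusted p = 0.00387). Lpcat1 was at -0.18 ± 0.06 (edgeR, adjusted p = 0.0372), a call that depended on single libraries. It was lost without any one of calcitriol replicates 1, 3, 4, 7, 8, 10 and 11 or vehicle replicates 5, 6, 8, 9 and 10, without the filter, and with similar libraries summed, where the adjusted p was highest (edgeR, 0.136). Mboat7 was at 0.08 ± 0.06 and was not called, and it overlaps Tsen34 on the opposite strand (1450 counts in calcitriol and 1592 in vehicle libraries). Lpcat2, an inducible enzyme of platelet-activating factor synthesis, had 2 counts in calcitriol and 1 in vehicle libraries.

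The genes of the other acetylhydrolases of platelet-activating factor, subunits included, had far smaller log2 changes than Pla2g7. Pafah2, an intracellular enzyme, rose by 0.33 ± 0.09 (edgeR, adjusted p = 0.00554) and the catalytic subunit Pafah1b3 fell, at -0.45 ± 0.09 (edgeR, adjusted p = 0.000388), while Pafah1b1 and Pafah1b2, at -0.01 ± 0.05 and 0.03 ± 0.05, were not called. Per kb of exon in calcitriol libraries, Pla2g7 was at 21.5 ± 5.26 CPM (SD). The catalytic subunits Pafah1b2 and Pafah1b3 were at 16.9 ± 1.28 and 16.9 ± 2.79 in the same libraries, and Pafah2 at 2.72 ± 0.326. Pafah1b1, a regulatory subunit that is not itself catalytic, was at 21.4 ± 1.23. The receptor for platelet-activating factor, Ptafr, had 4 counts in each group.

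Of the other prostanoid synthases, 3 of 8 were tested and 1 rose. Cbr1, a carbonyl reductase that can convert prostaglandin E2 to F2 alpha, rose by 0.66 ± 0.08 (edgeR, adjusted p = 6.61e-07), with 55.6 ± 8.16 CPM in calcitriol and 35.0 ± 4.97 CPM in vehicle libraries (SD, n = 11 each). Akr1b3 and Fam213b, which can make prostaglandin F2 alpha, were at -0.10 ± 0.12 and -0.20 ± 0.12 and were not called. The prostacyclin synthase Ptgis had 29 counts in calcitriol and 3 in vehicle libraries, and Ptgds had 0 counts in all 22. Of 3 tested genes of transport and breakdown, Ptgr1, Ptgr2 and Abcc4, 0 passed edgeR's threshold, with adjusted p of 0.0797, 0.529 and 0.195. Hpgd, the main prostaglandin-inactivating dehydrogenase, had 0 counts in calcitriol and 1 in vehicle libraries.

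Of the other prostanoid receptors, 3 of 7 were tested and 1 rose. The thromboxane receptor Tbxa2r rose by 0.91 ± 0.25 (edgeR, adjusted p = 0.00632), with 4.72 ± 2.04 CPM in calcitriol and 2.50 ± 1.11 CPM in vehicle libraries (SD, n = 11 each). Ptger2, the EP2 receptor, which like EP4 binds prostaglandin E2, was at 67.3 ± 9.95 CPM in calcitriol and 73.3 ± 8.58 CPM in vehicle libraries and was not called (log2 change -0.11 ± 0.08, edgeR adjusted p = 0.282). An antisense transcript over Ptger2, Gm17173, had 381 counts in calcitriol and 490 in vehicle libraries. The prostacyclin receptor Ptgir was not called either, at -0.09 ± 0.08. Ptgdr, the other receptor for prostaglandin D2, had 1 count in calcitriol and 0 in vehicle libraries.

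**Figure D4:**
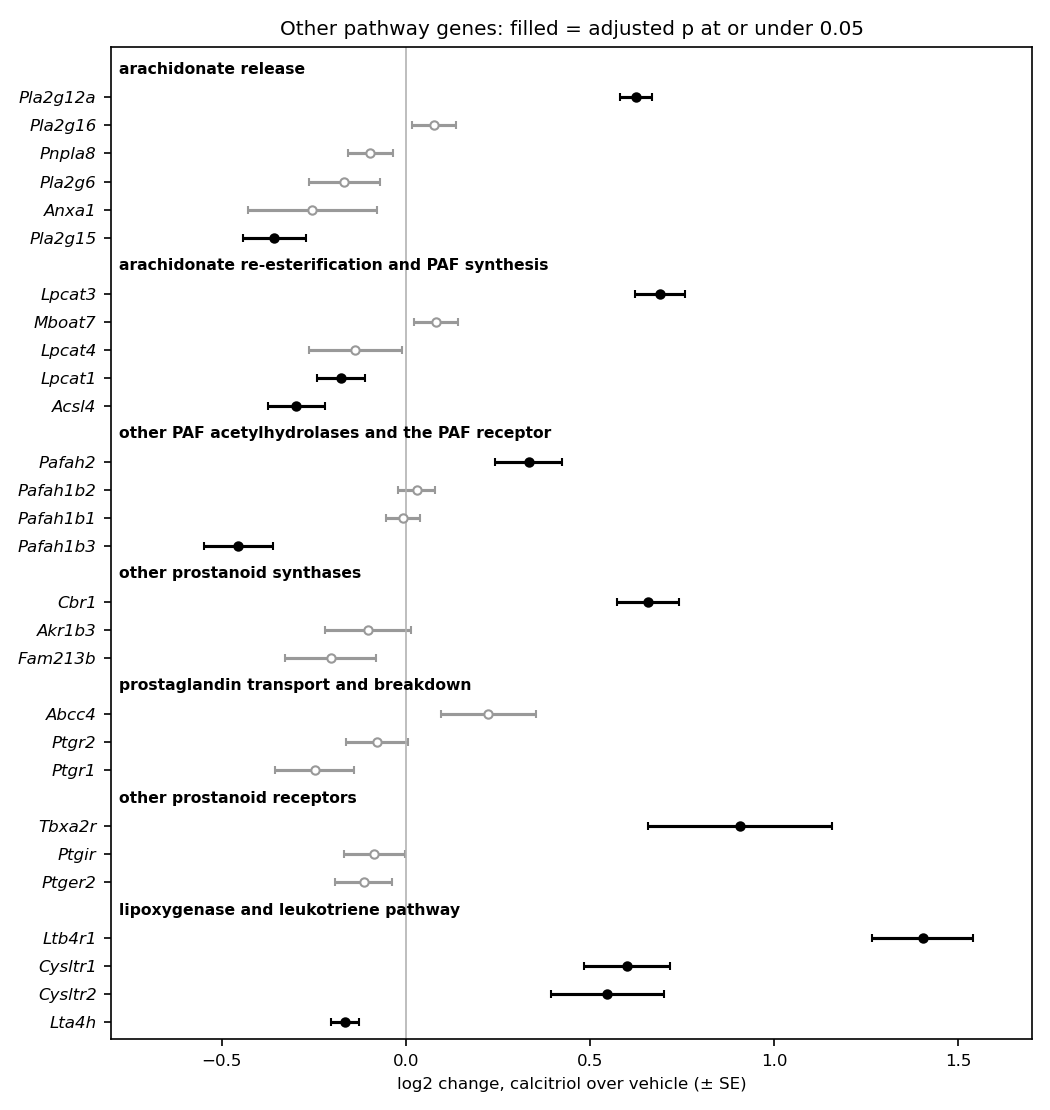
Log2 change of calcitriol over vehicle with its SE (horizontal axis) for the 28 other pathway genes that passed the filter, grouped by role; filled points passed an adjusted p of 0.05 in edgeR. The leukotriene receptor Ltb4r1 has the highest value, 1.40, and Pafah1b3 the lowest, -0.45.

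Several members are best known from macrophages, mast cells or platelets, so markers of these cells were set beside them. Of the 8 T cell and TH2 markers, 7 passed the filter, and by edgeR 3 of them rose and 2 fell. The TH2 cytokine Il13 fell, with 203 ± 106 CPM in calcitriol and 333 ± 104 CPM in vehicle libraries (SD, n = 11 each; log2 change -0.72 ± 0.23, adjusted p = 0.0204). Cd4 fell slightly, at -0.13 ± 0.04 (edgeR, adjusted p = 0.0153), while Cd28, Cd3g and Cd3e rose by 0.30 ± 0.07, 0.30 ± 0.07 and 0.20 ± 0.07 (edgeR, adjusted p = 0.00145, 0.00221 and 0.0353). Gata3 and Il4, at 0.17 ± 0.08 and 0.15 ± 0.08, were not called, and Il1rl1 was at 0.770 CPM in calcitriol and 0.765 CPM in vehicle libraries. The 8 TH2 list markers summed to 2511 ± 132 CPM in calcitriol and 2424 ± 189 CPM in vehicle libraries (adjusted p = 0.261 by permutation). The 12 macrophage markers summed to 9.30 ± 2.80 CPM in calcitriol and 7.09 ± 2.13 CPM in vehicle libraries (SD, n = 11 each; permutation test, two-sided, adjusted p = 0.0864), of which Cd68 gave 8.12 and 6.02 CPM. Fcgr1, C1qa, C1qb and Marco had 0 counts, and Csf1r had 1 count in calcitriol and 0 in vehicle libraries. Adgre1 had 50 counts in calcitriol and 15 in vehicle libraries, Cd14 29 and 26, and Itgam 4 and 0. Mertk had 10 counts in calcitriol and 38 in vehicle libraries, Mrc1 12 and 20, and Lyz2 0 and 2. The 9 mast cell and basophil markers summed to 1.25 ± 0.706 CPM in calcitriol and 1.22 ± 0.697 CPM in vehicle libraries (adjusted p = 0.927 by permutation), with Prss34 and Tpsb2 at 0.

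The 6 platelet markers, set beside the platelet-type cyclooxygenase Ptgs1, summed to 7.10 ± 1.28 CPM in calcitriol and 4.69 ± 1.24 CPM in vehicle libraries (adjusted p = 0.00192 by permutation), nearly all of it Itga2b (log2 change 0.58 ± 0.14, edgeR adjusted p = 0.00187), with Ppbp and Gp6 at 0 counts. The 8 neutrophil and eosinophil markers summed to 8.92 ± 2.60 CPM in calcitriol and 4.58 ± 1.49 CPM in vehicle libraries (adjusted p = 0.00176 by permutation), with Elane, Retnlg and Epx at 0. In that list Ly6g, which belongs to a family of similar genes, rose by 3.35 ± 0.29 on the log2 scale (edgeR, adjusted p = 4.56e-10). It had 2.16 ± 0.571 CPM in calcitriol and 0.191 ± 0.128 CPM in vehicle libraries (SD, n = 11 each), without overlap. With 19 counts over all vehicle libraries, Ly6g passed the filter on low counts through its calcitriol libraries, so nothing is read from its call. Cxcr2 rose by 0.67 ± 0.22 (edgeR, adjusted p = 0.0219). Below the filter, Siglecf went the other way, with 45 counts in calcitriol and 78 in vehicle libraries, while Prg2 had 28 and 11 and Mpo 11 and 1. Dendritic cell markers summed to 8.48 ± 1.55 CPM in calcitriol and 9.99 ± 1.09 CPM in vehicle libraries (adjusted p = 0.0429 by permutation), and this difference was not called on the log2 scale (adjusted p = 0.246). In this list Zbtb46 fell, with 2.59 CPM in calcitriol and 4.68 CPM in vehicle libraries (log2 change -0.90 ± 0.16, edgeR adjusted p = 5.56e-05). Itgax gave 3.34 and 3.38 CPM and Cd74 0.511 and 0.524 CPM. The means of H2-Aa, 1.49 and 1.03 CPM, and Flt3, 0.522 and 0.375 CPM, were higher in calcitriol. B cell markers summed to 10.5 ± 3.24 CPM in calcitriol and 8.13 ± 2.34 CPM in vehicle libraries (adjusted p = 0.0874 by permutation), of which Ebf1 gave 7.08 and 4.54 CPM. Stromal markers summed to 0.614 ± 0.178 CPM in calcitriol and 0.931 ± 0.490 CPM in vehicle libraries (adjusted p = 0.0864 by permutation). The part of such cells in the values of the members was not tested.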

How the data were processed

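RNA sequencing was done on 22 libraries from mouse TH2 cells, 11 with calcitriol and 11 with vehicle. Values are raw counts for each Ensembl gene as deposited, and the 22 columns were matched to samples by their names. A stranded total RNA kit was used, per the labels' protocols, and STAR 2.7.10a, HTSeq 0.13.5 and the build GRCm38 are listed without roles, per the submitters' processing notes. The strand setting is not given in the sources used here.

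Symbols, positions and exon lengths came from GENCODE M21 (same build). Exon length is the union over all annotated transcripts, so a level per kb is a guide where few are used. Genes were filtered with filterByExpr and tested with edgeR 4.0.16 (TMM, robust quasi-likelihood F test, no covariate, R 4.3.3), with Benjamini-Hochberg adjustment over 11905 genes and a threshold of 0.05. Marker sums were compared by two-sided permutation tests (100000 resamples), adjusted over 8 lists.

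The members and lists were chosen with earlier results of these data known. Named genes were all members, up to 4 genes with the smallest p per role list, the 5 most alike to Pla2g7 and to Ptgs2 over within-group deviations of log2 CPM, and tested neighbours within 250 kb. Alternatives were DESeq2 1.42.0, limma-voom (limma 3.58.1), other scaling and filters, 4 libraries left out, similar libraries summed (7 sets per group), and each library left out.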

Additional observations from a re-analysis of the deposited data

How the results depend on the processing

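Over 29 alternatives, the log2 change ran from 6.92 to 7.33 for Pla2g7, 5.17 to 5.45 for Ptgs2, 2.41 to 2.58 for Pla2g4a, 2.01 to 2.51 for Ptges, -0.21 to -0.14 for Ptges2, -0.29 to -0.24 for Ptges3 and -0.39 to -0.29 for Ptger4. These ranges describe the values that chose the members and lend them no support. The genes called ran from 2881 of 12856 tested with similar libraries summed to 4186 of 17773 with DESeq2, against 3755 of 11905. With 1 library left out they ran from 3467 to 3806. The number of genes tested differs between these fits, so the counts are not to be compared as shares. Of the other pathway genes, 7 to 9 rose and 4 to 6 fell. Besides Lpcat1 and Cysltr2, Pnpla8 passed without calcitriol replicate 4 (adjusted p = 0.0285) and Ptgr1 without calcitriol replicate 5 (0.0446). Ptgs1, Hpgds and Ptgdr2 had too few counts for the filter. No paired analysis was possible because the labels number no replicates and tie no calcitriol library to a vehicle library. Depth limits statements on Ptgs1 in calcitriol libraries, Hpgds and Ptgdr2.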
